A study of Saccharomyces cerevisiae with 24 samples.

Results

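The genes FUS1, BAR1, STE2, FAR1, STE12 and FUS3 act in the response of budding yeast to mating pheromone. They were examined in maps of short DNA fragments protected from micrococcal nuclease (sub-nucleosomal MNase-seq), in which proteins smaller than a nucleosome, such as transcription factors, leave peaks of reads. The members were all peaks inside each gene or up to 1 kb upstream of it, 77 of the 58467 peaks of the whole data set. FUS1 held 13 of them, BAR1 13, STE2 11, FAR1 15, STE12 17 and FUS3 8. The peaks had been called on all libraries together, and the rule that chose the members uses position only.

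Cells of mating type a carry the receptor Ste2, which binds alpha factor, the pheromone of the opposite mating type. The signal passes through a G protein and a kinase cascade to Fus3, the mitogen-activated protein kinase of mating, which frees the transcription factor Ste12 from its repressors. Ste12 binds the pheromone response element, TGAAACA, often beside the factor Mcm1 at genes of a cells. Its targets include FUS1, a membrane protein of cell fusion, BAR1, a secreted protease that degrades alpha factor, and FAR1, which inhibits cyclin-dependent kinase and holds cells in G1. The arrest used to synchronise these cultures is therefore itself a pheromone response, and the release ends exposure to the pheromone.

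Both strains were Saccharomyces cerevisiae of the W303 background, mating type a (MATa), with the alleles can1-100, trp1-1, rad5-535, ade2-1, leu2-3, 112, ura3-1 and his3-11, 15. The SSDDCS strain was sml1∆::HphNT and carried galactose-inducible copies of 6 limiting replication initiation factors (Cdc45, Dbf4, Dpb11, Sld2, Sld3 and Sld7) integrated at the leu2, his3 and trp1 loci. The control strain was sml1∆::URA3 without these copies. Loss of SML1, an inhibitor of ribonucleotide reductase, is thus shared by both strains, and no peak lay inside SML1. The labels name no change at any of the 6 pheromone genes. Both cultures were arrested with alpha factor in raffinose medium and given galactose while arrested, and the G1 sample therefore already contained galactose. They were then released into galactose medium and sampled at 5, 10, 15, 20, 25, 30, 35, 40, 45, 50 and 60 min. This gave 24 libraries from 1 culture of each strain, so that every time point of a strain rests on 1 library.

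The SSDDCS libraries held 481930 to 518046 reads in peaks and the control libraries 484807 to 536253. The ribosomal DNA array took 25.8% to 36.3% of the reads in SSDDCS libraries and 26.8% to 36.5% in control libraries. Its share in G1 was 36.3% in SSDDCS and 35.2% in control. Reads were scaled to the library total (normalised reads), which includes the ribosomal DNA and so does not correct for its share. Each change is therefore set beside the median change of all features of the same kind. High-confidence peaks were those whose log2(normalised reads + 1) added up to more than 75 over the libraries. The threshold is that of the study, which gives no pseudocount, so the peaks kept here can differ from its own. Of the 8217 peaks past it, 11 were members. These had means of 8.52 to 22.9 normalised reads per library, and the other 66 had means of 1.66 to 7.92.

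The high-confidence peaks lay mostly in the promoters. FUS1 (YCL027W, chromosome III, 71803 to 73341 in build sacCer3) had one at 71616, 187 bp upstream of its start codon, and one inside the gene at 72416. BAR1 (YIL015W, chromosome IX, 322342 to 324105) had one, at 322064, 278 bp upstream. STE2 (YFL026W, chromosome VI, 82580 to 83875) had peaks 252 and 452 bp upstream, at 82328 and 82128. The outer STE2 peak was also 216 bp upstream of the divergent gene GYP8, so that these reads cannot be assigned to 1 of the 2 promoters. FAR1 (YJL157C, chromosome X, 123836 to 126328, minus strand) had a peak 276 bp upstream at 126604. Its second peak, at 123804, lay 32 bp past the 3′ end of the gene and 856 bp upstream of CIS3, a cell wall gene. STE12 (YHR084W, chromosome VIII, 274174 to 276240) had peaks 453 and 704 bp upstream, at 273721 and 273470, of which the outer one lies inside the neighbouring gene SAM35. FUS3 (YBL016W, chromosome II, 192451 to 193512) had a peak 580 bp upstream at 191871, which is 288 bp upstream of PEP1. It also had one inside the gene at 193422, 700 bp upstream of ACH1. The peak closest to the FUS3 start, 180 bp upstream at 192271, averaged 6.58 normalised reads and was not high-confidence.

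The sequence under these peaks shows how the pheromone response element lies relative to the protected fragments. Each window below runs 50 bp to either side of the deposited peak position, 5′ to 3′ on the strand of the gene, in RefSeq build R64. Capitals mark TGAAAC or TGAAACA on either strand and the Mcm1 core CCNNNNNNGG. The STE2 peak at 82128 is shown because it changed most, and the FUS3 peak at 192271 because it holds an element although it is shallow.
FUS1, chrIII:71566-71666: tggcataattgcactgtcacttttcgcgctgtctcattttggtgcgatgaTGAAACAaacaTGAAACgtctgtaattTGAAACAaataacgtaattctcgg
BAR1, chrIX:322014-322114: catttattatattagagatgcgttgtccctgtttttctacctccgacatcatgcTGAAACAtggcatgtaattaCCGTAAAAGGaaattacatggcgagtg
STE2 (82328), chrVI:82278-82378: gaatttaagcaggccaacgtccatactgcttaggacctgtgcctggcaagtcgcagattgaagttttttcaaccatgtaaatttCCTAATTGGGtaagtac
STE2 (82128), chrVI:82078-82178: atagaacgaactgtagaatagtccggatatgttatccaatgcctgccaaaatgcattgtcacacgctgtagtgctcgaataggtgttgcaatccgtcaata
STE12, chrVIII:273671-273771: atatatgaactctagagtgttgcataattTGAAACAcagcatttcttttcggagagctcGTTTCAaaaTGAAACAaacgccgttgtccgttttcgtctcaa
FAR1, chrX:126554-126654 (minus strand): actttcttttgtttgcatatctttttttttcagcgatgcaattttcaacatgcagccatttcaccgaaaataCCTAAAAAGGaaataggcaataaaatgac
FUS3, chrII:192221-192321: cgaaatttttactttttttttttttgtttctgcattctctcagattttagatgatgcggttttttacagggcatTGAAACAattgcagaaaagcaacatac

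The deposited FUS1 position is the first base of a TGAAACA, and a second copy starts 27 bp further on. In BAR1 a copy starts 4 bp from the peak position. In STE12 copies start 21 bp before and 18 bp after it. The 2 copies upstream of STE2 start 71 and 55 bp from the inner peak, outside the printed window, and neither STE2 window holds one. The FAR1 window holds no TGAAACA either. An Mcm1 core lies 24 bp from the BAR1 peak, 34 bp from the inner STE2 peak and 22 bp from the FAR1 peak, within the printed windows. The Mcm1 core is a loose pattern, present within 50 bp of 20.8% of all 5007 high-confidence promoter peaks. Whether positions count from 0 or 1 was not stated, and distances may be off by 1 bp.

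Within 600 bp upstream of the start codon, FUS1, BAR1, STE2 and FUS3 each had 2 copies of TGAAACA, STE12 had 3 and FAR1 had 0. The shorter core TGAAAC occurred 2 times upstream of FAR1. At least 2 copies of TGAAACA were present in 5 of the 6 genes and in 13 of the 49 other genes (26.5%) of a list of pheromone pathway genes, against 1.18% of 6002 genes in all. These are matches of letters and were not tested for binding.

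Reads over the promoter window of STE2 fell after release, and this was the only promoter window of the 6 genes to pass the test. Only its peak at 82328 has STE2 as the nearest start. The peaks at 81728 and 81878 lie inside GYP8, and those at 81978 and 82128 lie 66 and 216 bp upstream of GYP8. The fall can therefore not be assigned to STE2 alone. The window sums the 5 peaks within 1000 bp upstream of the start. In SSDDCS it held 72.7 normalised reads in G1, then 62.7, 68.3, 33.1, 39.3, 31.0, 49.7, 37.5, 51.3, 48.1, 36.3 and 55.8 at 5 to 60 min. In control it held 72.9 in G1, then 56.3, 63.8, 48.5, 30.7, 35.6, 22.6, 32.4, 44.0, 35.6, 55.4 and 56.4. Every release library was below G1 of its own strain, the smallest values came between 15 and 35 min, and the values at 60 min lay between these and G1. Release libraries averaged 46.6 ± 12.3 against 72.7 in G1 in SSDDCS, and 43.7 ± 13.2 against 72.9 in control (SD over 11 time points, which are not replicates).

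The change was tested with edgeR's quasi-likelihood test over all 24 libraries, with strain and time point as factors and the mean of the 11 release points set against G1. The log2 change of the STE2 window was -0.72 ± 0.15 (SE, adjusted p = 5.07e-04), against a median of -0.02 over the 5491 promoter windows tested, of which 1.51% fell and 0.401% rose. G1 lay above all 11 release libraries in both strains in the STE2 window alone of the 5 testable members, and in 1.62% of all windows. The error of this test is the difference between 2 cultures of different genotype, and each strain has 1 G1 library. With 1 strain at a time, the fit had no time factor and set 11 release libraries, taken as replicates, against 1 G1 library. The STE2 change was then -0.64 in SSDDCS and -0.73 in control, and neither was called. DESeq2 without its filter on weak features gave -0.71 (adjusted p = 0.233).

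**Figure D1:**
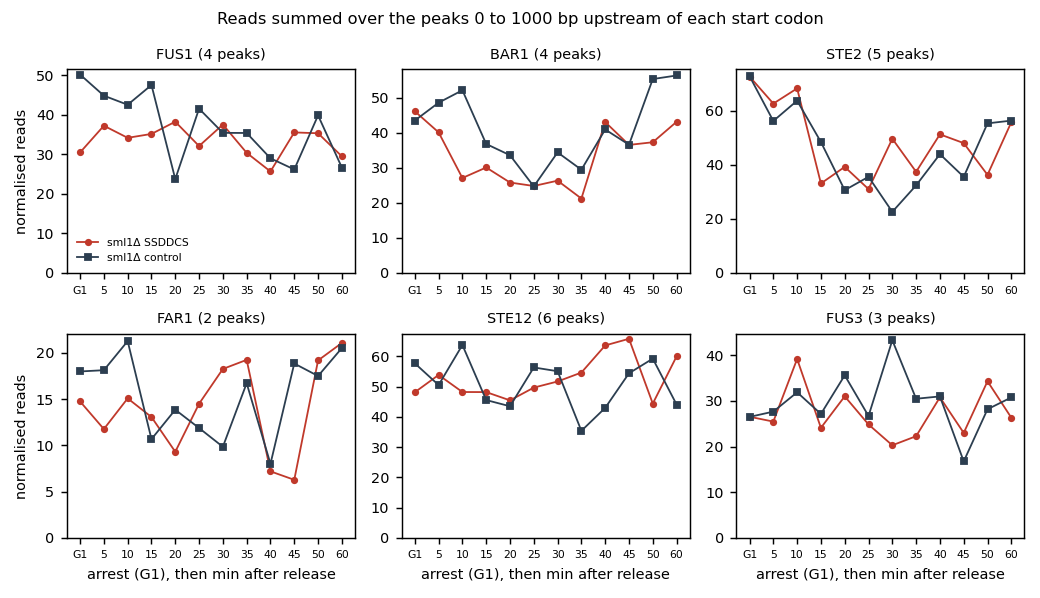
Normalised reads summed over the peaks up to 1000 bp upstream of each of the 6 start codons (vertical axes, from 0), in G1 and at each time after release (horizontal axes). Red circles are sml1∆ SSDDCS and dark squares are sml1∆ control, 1 library per point; the STE2 points after G1 all lie below the G1 values of 72.7 and 72.9.

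The outer STE2 peak, 452 bp upstream, carried the largest decrease of the 11 high-confidence peaks. In SSDDCS it held 26.5 normalised reads in G1, then 18.6, 12.1, 6.03, 9.30, 9.31, 24.3, 9.11, 12.3, 11.5, 9.08 and 10.5 at 5 to 60 min. Control held 29.3 in G1, then 13.3, 19.3, 11.6, 8.90, 6.92, 7.87, 6.88, 9.99, 5.23, 20.4 and 16.4. No release library reached G1 in either strain, although SSDDCS at 30 min came close. The log2 change was -1.29 ± 0.26 (SE, edgeR adjusted p = 1.45e-04), where the median over all 8217 high-confidence peaks was -0.08. Over all those peaks, 4.13% fell and 0.888% rose, and G1 lay above all release libraries of both strains in 2.73%. The call was lost with SSDDCS alone (-1.13), with control alone (-1.33) and with DESeq2 without its filter (-1.23, adjusted p = 0.173).

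The inner STE2 peak, 252 bp upstream beside the Mcm1 core, was lowest in the middle of the time course. In SSDDCS it held 25.5 in G1, then 20.6, 25.1, 13.1, 13.4, 9.31, 11.2, 15.2, 20.5, 12.5, 13.1 and 18.95 normalised reads. The control values were 22.7 in G1, then 24.8, 28.0, 18.4, 8.90, 10.9, 2.95, 9.83, 17.0, 11.5, 20.4 and 22.6. The lowest values lay at 25 min in SSDDCS and at 30 min in control. Over all release points the log2 change was -0.70 ± 0.25 and did not pass the test (edgeR adjusted p = 0.081). Of 20 other settings, 5 gave an adjusted p under 0.05. Among these, leaving out the 5 min libraries gave -0.76 (adjusted p = 0.0395) and leaving out those at 10 min -0.78 (adjusted p = 0.0452). A library size without the ribosomal DNA gave -0.82 (adjusted p = 0.0253). Among the settings that did not pass, leaving out 30 min gave -0.59 (adjusted p = 0.171). DESeq2 without its filter gave -0.63 (adjusted p = 0.634), and 5 and 10 min alone gave 0.028.

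The BAR1 peak, the strongest of the 77 members, also had its lowest values in the middle of the time course. In SSDDCS it held 28.5 normalised reads in G1, then 27.4, 17.1, 16.1, 13.4, 11.4, 12.2, 12.1, 24.6, 19.9, 27.2 and 24.2. In control cells it held 32.2 in G1, then 36.2, 37.7, 28.1, 20.8, 11.9, 15.7, 17.7, 22.0, 20.9, 32.1 and 40.0. Both cultures had their lowest value at 25 min. All 11 release libraries of SSDDCS were below G1, as were 8 of the 11 of control, with 5, 10 and 60 min above it. Over all release points the log2 change was -0.53 ± 0.23 (edgeR adjusted p = 0.159). The promoter window of BAR1 changed by -0.33 ± 0.18 (adjusted p = 0.347). It includes peaks at 321464 and 321614 that lie inside the neighbouring gene SNL1.

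Because these dips lay between 15 and 35 min, that span was set against G1 in the same fit. The span was chosen after the time courses had been seen, so its p-values describe a pattern picked from these data. In it the outer STE2 peak fell by 1.52 on the log2 scale (edgeR adjusted p = 1.75e-05), the inner STE2 peak by 1.13 (adjusted p = 2.24e-03) and the BAR1 peak by 0.96 (adjusted p = 3.56e-03). Those 3 of the 11 peaks passed, where 11.1% of all high-confidence peaks fell in this span and the median over all of them was -0.16. Among promoter windows STE2 (-1.02 ± 0.16, adjusted p = 2.98e-07) and BAR1 (-0.65 ± 0.19, adjusted p = 0.0146) fell, where 8.36% of all windows did. The median over all windows was -0.08 in this span. The BAR1 peak averaged 23.99 normalised reads at 40 to 60 min in SSDDCS, against 13.0 at 15 to 35 min. In control it averaged 28.7 at 40 to 60 min against 18.8 at 15 to 35 min. The share of reads in all high-confidence peaks was also lowest at 35 min, 50.3% in SSDDCS and 51.1% in control. At 60 min this share was 53.0% and 57.7%.

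**Figure D2:**
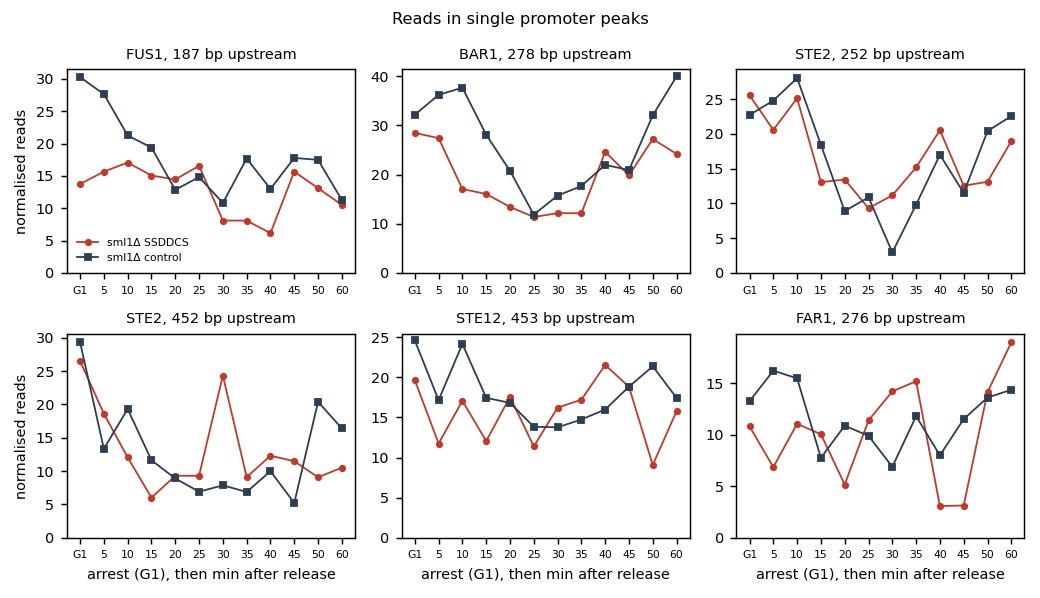
Normalised reads in 6 single promoter peaks (vertical axes, from 0; distance upstream of the start codon in each title) in G1 and after release (horizontal axes), with red circles for sml1∆ SSDDCS and dark squares for sml1∆ control, 1 library per point. The BAR1 peak and the STE2 peak 252 bp upstream dip between 15 and 35 min, whereas the STE2 peak 452 bp upstream is below G1 in all release libraries.

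The FUS1 peak, whose window holds 3 copies of TGAAAC, held fewer reads in SSDDCS than in control already in arrest. In SSDDCS it held 13.8 normalised reads in G1, then 15.7, 17.1, 15.1, 14.5, 16.6, 8.11, 8.10, 6.16, 15.7, 13.1 and 10.5. The control culture held 30.3 in G1, then 27.6, 21.3, 19.4, 12.9, 14.8, 10.8, 17.7, 13.0, 17.8, 17.5 and 11.3. All 11 release libraries of control were below G1, against 5 of 11 in SSDDCS. The mean of release over G1 was 0.93 in SSDDCS (95% interval 0.54 to 1.74) and 0.55 in control (0.38 to 0.83), where intervals cover counting error only. The difference between these ratios was not tested, since each rests on 1 G1 library. Over both strains the log2 change was -0.62 ± 0.26 (edgeR adjusted p = 0.154), and it was -0.84 (adjusted p = 0.0449) when only 30 to 60 min were set against G1. Of 20 other settings, this span was the only 1 to pass, and 15 to 35 min gave -0.69 (adjusted p = 0.078). The promoter window of FUS1 changed by -0.23 ± 0.18 (adjusted p = 0.591). Its peaks at 70965, 71115 and 71265 lie inside the neighbouring gene RNQ1, so the window does not measure the FUS1 promoter alone.

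No tested peak or promoter window at STE12 or FUS3 changed past the threshold. The STE12 peak 453 bp upstream held 19.7 normalised reads in G1 in SSDDCS, then 11.8, 17.1, 12.1, 17.6, 11.4, 16.2, 17.2, 21.6, 18.8, 9.08 and 15.8. In control the peak held 24.6 in G1, then 17.2, 24.2, 17.5, 16.8, 13.8, 13.8, 14.7, 16.0, 18.8, 21.4 and 17.4. All control release libraries and 10 of 11 in SSDDCS were below G1, yet the log2 change of -0.44 ± 0.26 did not pass (edgeR adjusted p = 0.330). The outer STE12 peak changed by -0.56 ± 0.32 (adjusted p = 0.320) and the STE12 window by -0.04 ± 0.16 (adjusted p = 0.933).

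The FUS3 peak 580 bp upstream held 17.7 normalised reads in G1 in SSDDCS, then 17.6, 22.1, 18.1, 22.7, 17.6, 12.2, 16.2, 18.5, 18.8, 26.2 and 20.0. Control libraries held 18.0 in G1, then 16.2, 22.2, 16.5, 20.8, 16.8, 24.6, 17.7, 23.0, 11.5, 22.3 and 26.7. Release libraries lay on both sides of G1 in both cultures, and the log2 change was 0.11 ± 0.27 (edgeR adjusted p = 0.867). The FUS3 window changed by 0.10 ± 0.22 (adjusted p = 0.876) and the peak inside FUS3 by -0.16 ± 0.35 (adjusted p = 0.854). In that window the peak at 191571 lies inside PEP1, and the one at 191871 is nearest to the PEP1 start. Only the shallow peak at 192271 has FUS3 as the nearest start, and it was outside the test of high-confidence peaks. It held 5.90 in G1 and averaged 5.55 after release in SSDDCS, against 7.57 and 7.58 in control.

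FAR1 was too shallow to test as a promoter window, with a mean of 14.8 reads per library where 20 were required. Its peak 276 bp upstream ranged from 3.08 to 18.95 normalised reads after release against 10.8 in G1 in SSDDCS, and from 6.89 to 16.2 against 13.2 in control. These ranges include G1 in both strains, and the log2 change was -0.21 ± 0.33 (edgeR adjusted p = 0.788). The stronger peak, past the 3′ end of FAR1, held 14.7 in G1 in SSDDCS, then 17.6, 17.1, 9.04, 17.6, 7.24, 16.2, 12.1, 11.3, 7.31, 13.1 and 24.2. In the control strain it held 21.8 in G1, then 29.6, 21.3, 12.6, 8.90, 8.90, 11.8, 5.90, 7.996, 13.6, 17.5 and 27.7. Its log2 change was -0.44 ± 0.28 (adjusted p = 0.399). The 5 and 60 min libraries were the only ones above G1 in control, and in SSDDCS 5 of 11 were above it.

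Inside the FUS1 and BAR1 genes reads rose after release. FUS1 held 21.6 normalised reads over its 9 internal peaks in G1 in SSDDCS, then 26.4, 47.2, 56.2, 44.4, 45.5, 62.9, 41.5, 39.0, 49.1, 43.4 and 57.9. The control sums over these peaks were 28.4 in G1, then 37.2, 43.5, 65.9, 53.4, 48.4, 59.0, 44.2, 51.0, 41.9, 30.1 and 54.3. Every release library exceeded G1 of its strain. The FUS1 gene body rose by a log2 change of 0.89 ± 0.20 (edgeR adjusted p = 1.68e-03), where the median over 4330 gene bodies was itself 0.25.

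The BAR1 gene body also rose, by 0.64 ± 0.20 (edgeR adjusted p = 0.0220). In SSDDCS its 9 internal peaks held 31.4 normalised reads in G1, then 33.3, 40.2, 42.2, 40.3, 45.5, 56.8, 51.6, 46.2, 59.6, 42.4 and 40.0. In control they held 25.5 in G1, then 31.5, 31.9, 42.7, 32.6, 50.4, 60.0, 47.2, 48.0, 60.7, 36.9 and 52.3. Here too all release libraries were above G1, with the highest value at 45 min in both cultures. Of all gene bodies 12.3% rose and 0.462% fell, and G1 was below all release libraries of both strains in 6.26%. FUS1 and BAR1 were the 2 of the 6 genes to rise, and the only ones with G1 below all release libraries of both strains.

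The 4 other gene bodies did not pass the test. The log2 change was 0.37 ± 0.19 for STE12 (edgeR adjusted p = 0.169), 0.25 ± 0.23 for STE2 (adjusted p = 0.460), 0.11 ± 0.23 for FUS3 (adjusted p = 0.769) and 0.05 ± 0.19 for FAR1 (adjusted p = 0.883). The peak inside FUS1 at 72416 changed by 1.18 ± 0.45 (adjusted p = 0.102), from few reads, 5 in SSDDCS and 3 in control in G1. Scaling with TMM factors, which brought the median of gene bodies to 0.01, gave 0.65 for FUS1 (adjusted p = 0.071) and 0.39 for BAR1 (adjusted p = 0.383). Both calls thus depend on scaling to the library total, and for BAR1 also on the ribosomal DNA counted in it (0.52 without, adjusted p = 0.122).

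**Figure D3:**
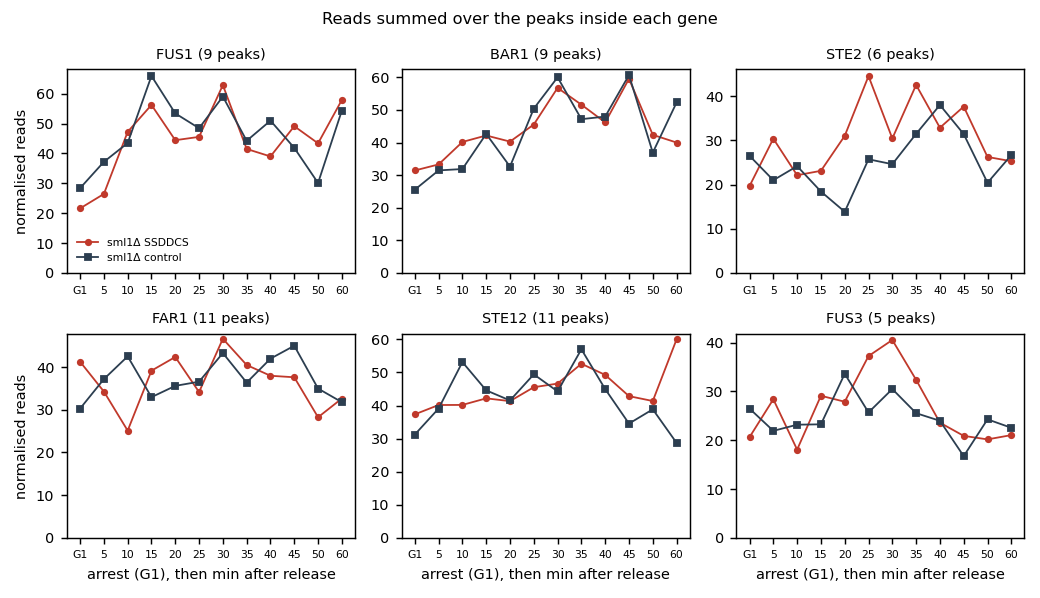
Normalised reads summed over the peaks inside each of the 6 genes (vertical axes, from 0; number of peaks in each title), in G1 and after release (horizontal axes), with red circles for sml1∆ SSDDCS and dark squares for sml1∆ control, 1 library per point. FUS1 rises above its G1 values of 21.6 and 28.4, and BAR1 above 31.4 and 25.5, in all release libraries.

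DNA copy number rises in S phase, and the weaker peaks around each locus were measured as a local background. Peaks that were not high-confidence within 10 kb of each gene held more reads after release than in G1, by a ratio of 1.15 to 1.43 in SSDDCS and of 1.03 to 1.33 in control. The ratio was 1.33 in SSDDCS and 1.33 in control around FUS1, 1.37 and 1.16 around BAR1, and 1.43 and 1.07 around STE2. The nearest annotated replication origins were ARS306 at 2.66 kb from the FUS1 start, ARS231 at 5.86 kb from FUS3, ARS918 at 8.31 kb from BAR1, ARS1007 at 12.6 kb from FAR1, ARS814 at 12.6 kb from STE12 and ARS603 at 13.7 kb from STE2. In the whole data set, high-confidence peaks held 63.4% of reads in G1 in SSDDCS and 50.3% at 35 min. In control they held 62.3% and 51.1%. Weaker peaks thus gained a share of reads across the genome by 35 min. The ratios around the 6 loci are therefore not a measure of local copy number alone. Scaling to the library total also removes the mean rise in copy number. The part of copy number in the changes at the members was not tested.

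A list of 55 genes of the pheromone pathway and of a and alpha cells was examined in the same fits, the 6 genes included. Of the 48 promoter windows deep enough to test, 4 fell and 0 rose, where 1.51% of all windows fell and 0.401% rose. The median log2 change was -0.08, against -0.02 over all windows. Without the 6 genes, 3 of 43 fell. These 3 were AGA1, TEC1 and KAR4. Each window sums all peaks up to 1000 bp upstream, and peaks in or nearer to neighbouring genes were not separated. AGA1, the cell wall anchor of a-agglutinin, fell with a log2 change of -1.03 ± 0.20 (edgeR adjusted p = 2.96e-04). TEC1, a transcription factor that acts with Ste12, fell with a change of -0.63 ± 0.15 (adjusted p = 4.94e-03). KAR4, a transcription factor for nuclear fusion genes, fell with a change of -0.62 ± 0.18 (adjusted p = 0.0406), and leaving out the 10, 15 or 30 min libraries ended that call (adjusted p = 0.0527, 0.0506 and 0.0593).

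In all 3 of these windows G1 exceeded every release library. AGA1 ranged from 12.6 to 29.4 normalised reads after release against 36.4 in G1 in SSDDCS, and from 11.9 to 24.6 against 39.7 in control. TEC1 ranged from 31.0 to 56.2 against 74.7 in SSDDCS, and from 32.0 to 61.2 against 66.2 in control. KAR4 ranged from 22.1 to 36.6 against 47.2 in SSDDCS, and from 20.3 to 41.5 against 45.4 in control. DESeq2 without its filter called none of the 3 (adjusted p = 0.184 for AGA1, 0.438 for TEC1 and 0.663 for KAR4). Fits of either strain alone called none of them either, with log2 changes from -1.21 to -0.48.

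These 3 windows were already below G1 at 5 and 10 min in both strains. At 5 and 10 min TEC1 fell with a log2 change of -0.71 ± 0.18 (edgeR adjusted p = 0.0442) and KAR4 with one of -0.92 ± 0.23 (adjusted p = 0.0325), where 0.164% of all windows fell. The 3 windows had been named because they fell over all release points, which include these libraries and the same G1 libraries, so this is a description and not a separate test. AGA1 changed by -0.89 ± 0.24 in that span (adjusted p = 0.077) and STE2 by -0.22 ± 0.17 (adjusted p = 0.880). None of the 5 testable windows of the 6 genes passed in that span. The difference in timing between STE2 and the other 3 was not tested.

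**Figure D4:**
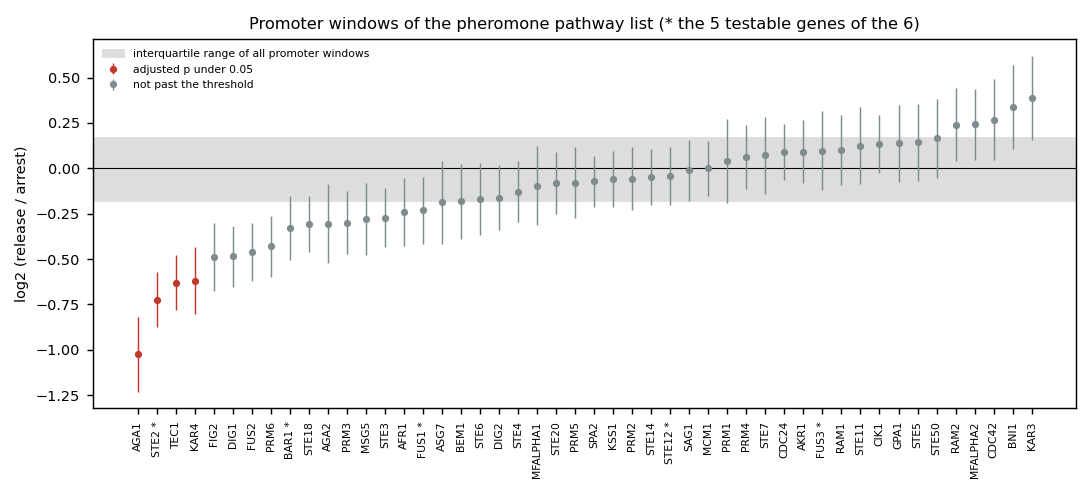
Log2 change of release over arrest (vertical axis) of the 48 testable promoter windows of the pathway list (horizontal axis, sorted by change). Points are edgeR estimates with SE bars, red where the adjusted p was under 0.05 (AGA1, STE2, TEC1 and KAR4), and the grey band spans the interquartile range of all 5491 windows, from -0.18 to 0.17.

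Among gene bodies of the list, 10 of 44 rose and 0 fell, where 12.3% of all bodies rose and 0.462% fell. The median of the list was 0.32, against 0.25 over all bodies. These were FUS1, PRM1, AFR1, KSS1, BAR1, STE6, SAG1, KAR3, STE20 and FIG2. With TMM factors 0 of these 10 were called, and with the library size outside the ribosomal DNA 2 were.

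The 6 genes were also read against all promoter peaks that carry the element. TGAAACA lay within 50 bp of 117 of the 5007 high-confidence promoter peaks (2.34%). Their median log2 change was -0.16, and 9 of them (7.69%) fell, against -0.18 and 251 (5.01%) of all promoter peaks. The 9 that fell were upstream of YOR019W, FIG2, HSH155, UTR2, TVP15, RCN2, INP52, YLR154C-G and TAR1, of which the last 2 lie in the ribosomal DNA. The FUS1, BAR1 and STE12 peaks were among the 117 and none of them fell. The STE2 peaks, of which the outer fell, were not among them.

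The SSDDCS and control cultures were compared without a test, since each had 1 library per time point. At 10 of the 11 release points the BAR1 peak was lower in SSDDCS, and its log2 ratio averaged -0.42 ± 0.36 (SD over 11 time points). SSDDCS held 202 of its 489 reads after release, a share of 41.3% (95% Clopper-Pearson interval 36.9 to 45.8), where library totals give 49.2%. This interval and those that follow cover counting error only, not the spread between cultures, and test no strain difference. The FUS1 peak was lower at 9 of 11, with a mean of -0.38 ± 0.41 and a share of 42.5% (37.0 to 48.0). In G1 its log2 ratio was -1.08, from 14 reads in SSDDCS against 32 in control, a share of 30.4% (17.7 to 45.8). Only the FUS1 peak of the 11 was past 2-fold in G1, which 8.52% of all high-confidence peaks were. The FUS1 and BAR1 peaks were 2 of the 11 lower in SSDDCS at 9 or more time points, as 7.36% of all such peaks were.

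The other 9 high-confidence peaks had mean log2 ratios from -0.28 to 0.26, each smaller than its SD over the time points. At 30 min the single ratios of the inner and outer STE2 peaks were 1.62 and 1.51, where the control library held 2.95 and 7.87 normalised reads. STE12's outer peak reached 1.59 at 45 min and the upstream FAR1 peak -1.60 at 45 min. Being past 2-fold at 1 or more time points was common at this depth, in 64.2% of all high-confidence peaks, and 7 of the 11 members were. The STE2 gene body had the largest mean ratio among the windows, 0.33 ± 0.39, with 54.9% of reads in SSDDCS (50.9 to 58.9).

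**Figure D5:**
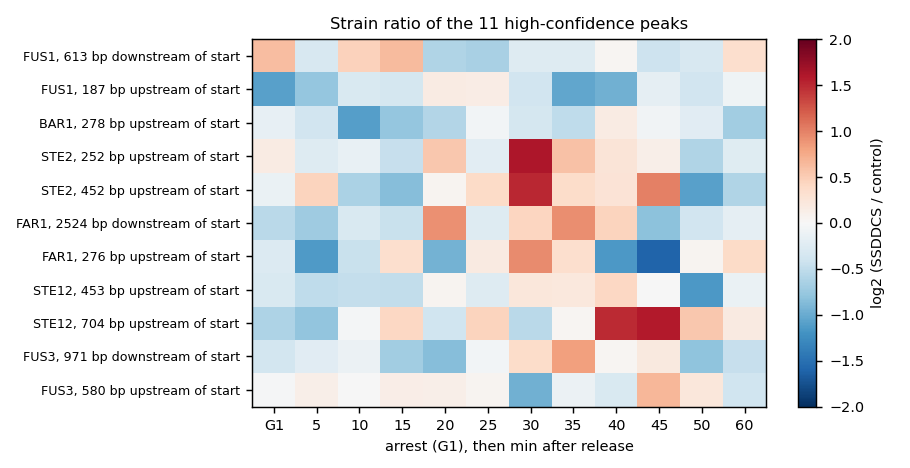
Log2 ratio of SSDDCS over control (colour, red higher and blue lower in SSDDCS) of each of the 11 high-confidence peaks (rows, by distance from the start codon) in G1 and after release (columns). The BAR1 row is blue at 10 of 11 time points after G1 and the FUS1 row 187 bp upstream at 9 of 11, and each cell compares 1 library with 1 library.

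The promoter peaks most like the FUS1 peak across the 24 libraries were found by Pearson's r of log2(normalised reads + 1). They lay upstream of YJU2 (r = 0.79), RPB3 (0.77), SHC1 (0.74), LEU5 (0.72) and LDB17 (0.72), at 195 to 270 bp from the start. The median r over all promoter peaks was 0.12. Among the other 9 promoter peaks of the members r ranged from -0.05 (FUS3, 580 bp upstream) to 0.40 (outer STE12 peak), with 0.38 for BAR1, 0.27 for the inner STE2 peak and 0.15 for the outer one. All values share the same 24 libraries and their scaling, and the 5 genes were picked from 5007 peaks, so the values describe these libraries only.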

How the data were processed

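Reads were mapped by the authors to sacCer3 with Bowtie2 2.2.6 and SAMtools 0.1.19 (submitters' processing notes), and fragments shorter than 100 bp were then selected. They drew an equal number of reads of each fragment length from every library, called peaks on the merged libraries and deposited whole read counts per peak and library. The sampling hides differences in depth and digestion. The width of the counting window was not given in the sources used here.

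Counts were summed over peaks up to 1000 bp upstream of each coding start, or inside each gene (mean of 20 reads or more), and tested with edgeR 4.0.16 (R 4.3.3, Benjamini-Hochberg adjustment over all features, threshold 0.05). The fit had 11 residual degrees of freedom. Strains were compared on log2(normalised reads + 1). The test was also run on simulated independent counts. These leave out errors shared within a culture, so that run does not vouch for the test on these data. Every high-confidence peak of the 6 genes was named, and of the pathway list those past the threshold in promoter windows. The members and lists were chosen with earlier results of these data known. The interval given for FAR1 ends short of 1 kb upstream of the R64 start; 0 peaks lay in the remainder, and 2 of its 15 peaks lay past the 3′ end. Alternatives were other library sizes, TMM, DESeq2 1.42.0, no filter, 1 strain, time points left out, shorter spans and a 500 bp window.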

Additional observations from a re-analysis of the deposited data

How the results depend on the processing

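Strain was a term of the fit, so release and G1 were compared within strains. No paired analysis by replicate number was possible because no group has a second library. The STE2 promoter window stayed below 0 under all 21 alternatives with an adjusted p (-1.02 to -0.22) and under the default DESeq2, and the outer STE2 peak under all 20 (-1.52 to -0.81). Besides the settings named with each result, both calls were lost at 5 and 10 min only (-0.22, adjusted p = 0.880, and -0.81, adjusted p = 0.329). So were those of the FUS1 (0.60, adjusted p = 0.472) and BAR1 (0.26, adjusted p = 0.862) gene bodies. These 2 were also lost with SSDDCS alone (log2 change 1.105 and 0.52), with control alone (0.76 and 0.81) and with DESeq2 without its filter (adjusted p = 0.650 and 0.99957). Depth limits single peaks, and time points of 1 culture are not replicates. The fits of 1 strain take them as such, against 1 G1 library and without the time factor, so their counts of calls are descriptions only.

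Of high-confidence peaks 412 were called, and leaving out each time point in turn gave 310 to 637, with 637 called without 5 min. The count was 760 with the library size outside the ribosomal DNA, 204 with no filter, 37 at 5 and 10 min, 1084 at 15 to 35 min (chosen after seeing the data), 56 with DESeq2 and 42 with DESeq2 without independent filtering (added because the default filter gave no adjusted p for any window of the 6 genes). With SSDDCS alone it was 15, and with control alone 0 (449 at an unadjusted p under 0.05). Promoter windows gave 105, with 77 to 190 when a time point was left out (190 without 5 min, 158 without 50 min). They gave 417 outside the ribosomal DNA, 17 at 5 and 10 min, 561 at 15 to 35 min, 174 with a 500 bp window, 19 with DESeq2 and 7 without its filter. With SSDDCS alone they gave 0 (483 at an unadjusted p under 0.05) and with control alone 0 (183). Gene bodies gave 554, with 407 to 805 when a time point was left out. They gave 116 outside the ribosomal DNA, 65 with TMM, 1 at 5 and 10 min, 1103 at 15 to 35 min, 994 at 30 to 60 min, 22 with DESeq2 and 17 without its filter. With SSDDCS alone they gave 0 (766 at an unadjusted p under 0.05) and with control alone 0 (272). G1 exceeded all release libraries of both strains in 224 peaks, or 370 with 5 min left out.

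Some changes that had not passed the test also turned sign, and the cause was not tested. With SSDDCS alone the FUS1 window gave 0.15, the STE12 window 0.14, the FAR1 body -0.19, the peak inside FUS3 (193422) 0.036 and the outer STE12 peak 0.016. With control alone the STE2 body gave -0.083 and the FUS3 body -0.10. At 5 and 10 min the STE12 window gave 0.030, the FAR1 body -0.035, the FUS3 body -0.051, the FAR1 peaks 0.22 (123804) and 0.041 (126604), the outer STE12 peak 0.13 and the inner STE2 peak 0.028. Outside the ribosomal DNA the FUS3 window gave -0.017, the FAR1 body -0.067, the FUS3 body -0.0081 and the FUS3 peak at 191871 -0.0050. TMM gave -0.19 for the FAR1 body and -0.14 for the FUS3 body, and DESeq2 without its filter -0.22 and -0.15, with -0.013 for the STE2 body. The 500 bp window gave 0.045 for STE12, and 15 to 35 min 0.097 for the FUS3 peak at 193422.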
